A study of Mus musculus with 4 samples.

Results

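The 45 genes described here are targets of the transcription factor ATF4 and genes of the unfolded protein response, the programmes by which cells answer amino acid shortage and misfolded protein. They were picked by symbol from a list drawn up with earlier results of these data known, by a rule that uses no measured value, and are 45 of the 25050 genes in the table. They comprise 11 transcription factors, sensors and feedback regulators, 9 enzymes of amino acid and one-carbon synthesis, 3 amino acid transporters, 12 cytosolic aminoacyl-tRNA synthetases, 5 folding factors of the endoplasmic reticulum (ER), 4 genes of ER-associated degradation and 1 lipoprotein receptor. All 45 reached the minimum average of 10 normalised reads and so belong to the 15540 genes tested.

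Stress kinases that sense amino acid shortage, heme shortage, viral RNA or misfolded ER protein phosphorylate the translation initiation factor eIF2. General translation then slows while the Atf4 mRNA is translated more, and ATF4 switches on genes that make, import and load amino acids onto tRNA, together with feedback regulators such as Trib3 and Ppp1r15a and the pro-apoptotic factor Ddit3 (CHOP). In the unfolded protein response, misfolded protein in the ER also activates IRE1 (Ern1), which splices the Xbp1 mRNA, and ATF6, which is cut and moves to the nucleus, and both raise chaperones and degradation factors of the ER. The table gives 1 value per gene, so neither Xbp1 splicing nor Atf4 translation nor any protein was measured.

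RNA was sequenced from 4 libraries of HT-22, an immortalised mouse line described as hippocampal neuron, at passages 21 to 24. Of these, 2 libraries were labelled wild type and 2 came from cells carrying an inducible Nsmce1, a RING-type subunit of the SMC5/6 chromosome maintenance complex, and called overexpression below. The series' design text calls the controls both uninduced and wild type, and the inducer, its dose and time, and whether a clone or a pool was used are not given in the sources used here. Since no label says that replicates were grown as separate cultures, p-values measure only how these samples spread, which may be technical.

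The libraries held between 25787452 and 44602989 reads. Nsmce1 had 1108 and 1206 normalised reads in wild type against 17851 and 16525 in overexpression, a 14.8-fold difference that passed the test (log2 fold change 3.89, SE 0.0856, limma adjusted p = 9.07e-05). Of 13 neuronal markers, 5 were tested, 4 were too low to test and 4 were not analysed here. Across the 4 libraries Tubb3 stood between 446 and 622 normalised reads, Syn1 between 1024 and 1219, Dlg4 between 1867 and 2425, Eno2 between 3884 and 5778 and Camk2a between 30.5 and 108, while Syt1, Nefm, Grin1 and Stmn2 did not exceed 16.3. All 8 markers of fibroblasts and mesenchyme were tested, and their summed level was 452544 to 515601 normalised reads in wild type against 421088 to 489841 in overexpression, against 7666 to 8292 and 7830 to 9730 for the 9 neuronal markers with values. None of the lists for astrocytes, microglia, oligodendrocytes or endothelium summed to more than 91.0 normalised reads in any library. These sums cover 3 of 6 astrocyte, 5 of 5 microglial, 3 of 6 oligodendrocyte and 4 of 5 endothelial markers. The neuronal markers were thus mixed, some well expressed and some barely counted, and the sum of the mesenchymal list came mostly from collagens and Fn1. In RNA from whole cultures, fewer cells of a type and less RNA per cell cannot be told apart.

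None of the 45 genes passed the test. Over all genes tested, 30 of 15540 did (0.193%, limma, Benjamini-Hochberg adjusted p under 0.05), and the smallest adjusted p among the 45 was 0.350, for Nupr1. Most values leaned slightly down: 34 of the 45 log2 fold changes (75.6%) lay below 0, with a median of -0.15 and a range from -0.41 to 0.92, while 48.7% of all genes tested lay below 0 with a median of 0.01. An unadjusted limma p under 0.05 was reached in the lower direction by Aldh18a1, Canx, Asns, Atf5 and Iars, 5 of 45 (11.1%) beside 3.60% of all genes tested. In the higher direction it was reached by Nupr1, 1 of 45 (2.22%) beside 4.32%. In 11 genes (24.4%) both overexpression libraries lay below both wild type libraries, beside 18.3% of all genes tested, and in 2 (4.44%), Nupr1 and Cebpg, both lay above, beside 20.8%. The 95% limits of the log2 fold change stayed within 1 on either side of 0 for 44 of the 45 genes and within 0.5 for 33. A change of 2-fold or more was thus outside the limits of every gene but Nupr1. Markers of fibroblasts and mesenchyme were also mostly lower, with 7 of 8 below 0 and a median of -0.09. Among them Col3a1 (log2 fold change -0.37) and Postn (-0.79), named after their values were seen, had groups that did not overlap, with limma adjusted p-values of 0.560 and 0.546. The part of these markers in the lean of the 45 genes was not tested. Without overexpression replicate 1 the median of the 45 was -0.04, and without wild type replicate 2 it was -0.06.

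**Figure D1:**
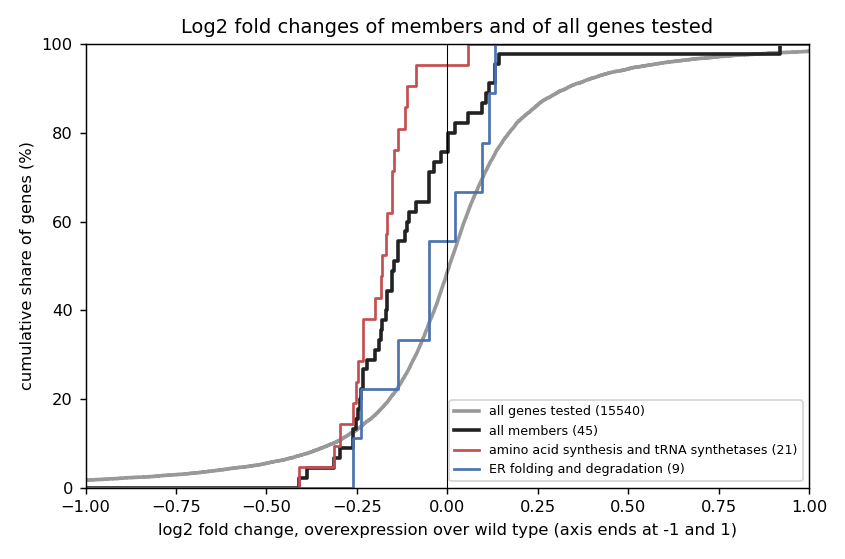
Cumulative share of genes (vertical axis, %) at or below each log2 fold change of overexpression over wild type (horizontal axis, ends at -1 and 1), for all 15540 genes tested, the 45 genes, the 21 genes of amino acid synthesis and tRNA charging, and the 9 genes of ER folding and degradation. The line of the 45 genes crosses 0 at 75.6% and that of all genes tested at 48.7%.

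Atf4 (chromosome 15), the factor that drives the amino acid programme, had 7801 and 8267 normalised reads in wild type against 7041 and 7273 in overexpression. The groups did not overlap, but the log2 fold change of -0.17 (SE 0.0736) did not pass (limma adjusted p = 0.657). Atf5 (chromosome 7), a related factor whose mRNA is also translated under eIF2 phosphorylation, had 4133 and 4892 normalised reads in wild type against 3090 and 3826 in overexpression. Its log2 fold change was -0.39 (SE 0.134, limma adjusted p = 0.549), and both overexpression libraries were below both wild type ones. Leaving out overexpression replicate 1 gave -0.23, and leaving out replicate 2 of that group gave -0.54. Atf5 overlaps Nup62 on the opposite strand, and their reads cannot be told apart if counting ignored strand, on which the sources used here give nothing. Nup62 had 1095 and 4020 normalised reads in wild type against 1043 and 1077 in overexpression, with wild type replicate 2 far above the other 3 libraries.

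Atf6 (chromosome 1), the membrane-bound factor of the unfolded protein response, had 2803 and 2523 normalised reads in wild type against 2589 and 2595 in overexpression. Xbp1 (chromosome 11), whose mRNA is spliced by IRE1, had 2880 and 2968 in wild type against 2560 and 2883 in overexpression, and the groups of both genes overlapped. Ern1 (chromosome 11), which encodes IRE1, had 1807 and 1682 normalised reads in wild type against 1967 and 1793 in overexpression, again with overlap. The log2 fold changes of Atf6, Xbp1 and Ern1 were -0.04, -0.11 and 0.11, with limma adjusted p-values of 0.946, 0.808 and 0.815.

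Ddit3 (chromosome 10), the pro-apoptotic factor CHOP, had 878 and 909 normalised reads in wild type against 1072 and 893 in overexpression, where replicate 1 alone stood higher. Its log2 fold change was 0.13 (SE 0.121, limma adjusted p = 0.822). Chromosome 10 as a whole had a median of 0.14, and after chromosome medians were subtracted Ddit3 stood at -0.01. Trib3 (chromosome 2), a pseudokinase that feeds back on ATF4, had 791 and 876 normalised reads in wild type against 876 and 566 in overexpression. Only overexpression replicate 2 was low, and the log2 fold change went from -0.24 (SE 0.210, limma adjusted p = 0.810) to 0.07 without it. Ppp1r15a (chromosome 7), which directs the phosphatase that resets eIF2, stood at 927 ± 0.740 normalised reads in wild type against 931 ± 96.8 in overexpression (SD, n = 2 in each group), a log2 fold change of 0.001.

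Nupr1 (chromosome 7), a small stress-induced chromatin protein, had the highest log2 fold change of the 45. It had 533 and 339 normalised reads in wild type against 860 and 753 in overexpression, a 1.89-fold difference. Both overexpression libraries were above both wild type ones, which themselves lay 0.33 above and below their mean on the log2 scale. The log2 fold change was 0.92 (SE 0.221) with 95% limits of 0.38 to 1.46, and it did not pass (limma adjusted p = 0.350). Leaving out each library in turn gave 0.59 to 1.24. Of the partners of ATF4, Cebpb (chromosome 2) stood at 1158 ± 74.4 normalised reads in wild type against 991 ± 26.6 in overexpression (SD, n = 2 in each group, log2 fold change -0.22), and Cebpg (chromosome 7) had a log2 fold change of 0.14. Their limma adjusted p-values were 0.659 and 0.731. Cebpb shares exon positions with Tmem189 on the opposite strand, which had 2500 and 2279 normalised reads in wild type against 2196 and 1569 in overexpression (log2 fold change -0.36). The 11 regulators thus had 6 values below and 5 above 0, with a median of -0.04.

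**Figure D2:**
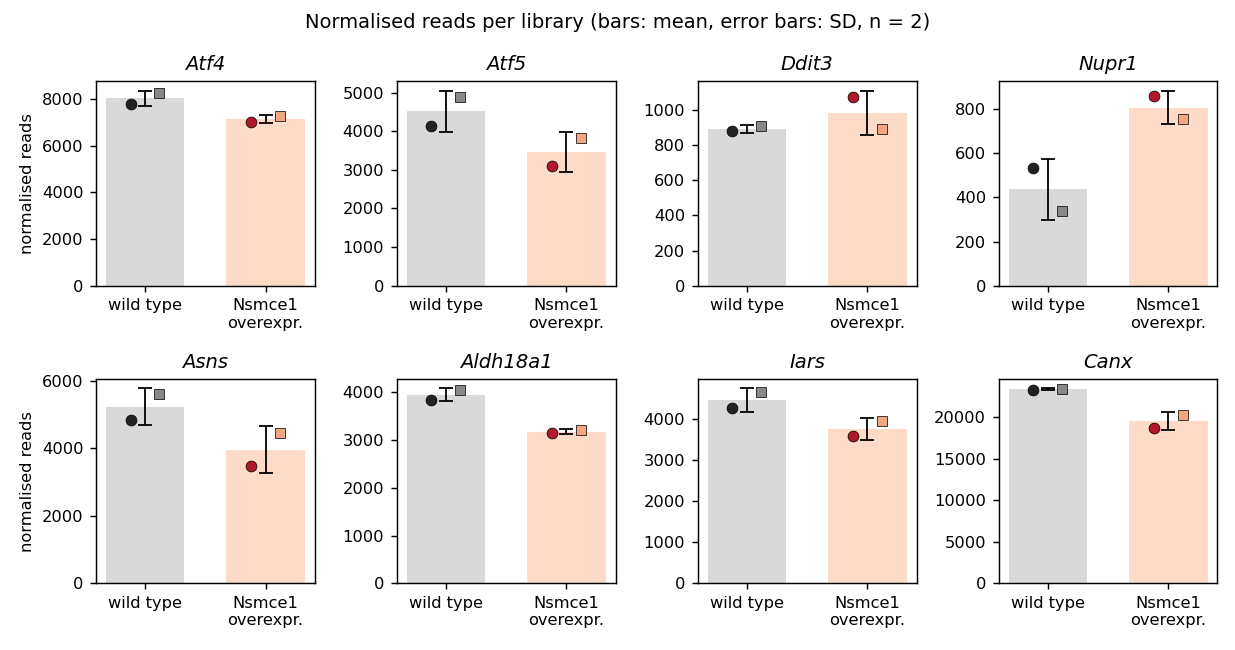
Normalised reads (vertical axis, from 0) of Atf4, Atf5, Ddit3, Nupr1, Asns, Aldh18a1, Iars and Canx, with bars for the group mean, error bars for the SD (n = 2 in each group), circles for replicate 1 and squares for replicate 2. The groups overlap for Ddit3, overexpression lies higher for Nupr1, and it lies lower for the other 6 genes.

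Targets of ATF4 often carry a CARE element, a composite site bound by ATF4 with a CEBP partner. Its core was searched here as TGATGNAA on both strands of the windows from 250 bases before to 50 after the start of each gene, taken from RefSeq (GRCm38.p6). Windows were found for 38 of the 45 genes, 42 windows in all. For 33 of the 38, the bases after the start were found early in a GENCODE transcript of the gene. The core was present in 12 of the 38 genes (Aars, Asns, Gars, Herpud1, Iars, Nupr1, Pycr1, Slc1a4, Tars, Trib3, Vldlr and Yars). It was in 12 of the 42 windows, beside 3.97% of all 32851 windows. The 5 genes with the sequences below include the one with the highest log2 fold change, the one with the lowest, an imino acid enzyme and a pair of synthetases, and they were picked after their values were seen. Each is printed 5' to 3' in the direction of transcription with the core in capitals, which show its reverse complement where it lies on the other strand.
Asns, chr6:7693210-7693309, minus strand: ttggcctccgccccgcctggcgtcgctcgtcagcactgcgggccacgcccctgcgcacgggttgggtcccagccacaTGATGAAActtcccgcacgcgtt
Nupr1, chr7:126625527-126625626, minus strand: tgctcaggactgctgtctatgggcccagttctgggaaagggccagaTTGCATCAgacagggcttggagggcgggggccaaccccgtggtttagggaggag
Aars, chr8:111033684-111033783, plus strand: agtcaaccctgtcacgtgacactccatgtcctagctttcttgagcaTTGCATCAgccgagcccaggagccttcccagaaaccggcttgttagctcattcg
Pycr1, chr11:120643798-120643897, minus strand: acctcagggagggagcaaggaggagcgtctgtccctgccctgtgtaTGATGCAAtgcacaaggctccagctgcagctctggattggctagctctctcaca
Gars, chr6:55037901-55038000, plus strand: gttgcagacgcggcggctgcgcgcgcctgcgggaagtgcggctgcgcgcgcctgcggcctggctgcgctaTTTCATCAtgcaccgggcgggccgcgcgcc
Nupr1 and Asns both held a match, with log2 fold changes of 0.92 and -0.41. Of the 12 genes with the core, 9 lay below 0 with a median of -0.19, and of the 26 without it 18 lay below 0 with a median of -0.12. A match describes letters in a window and was not tied to binding.

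The 9 enzymes of amino acid and one-carbon synthesis all lay below 0, with a median of -0.23, and none passed the test. Asns (chromosome 6), asparagine synthetase and a classical ATF4 target, had 4854 and 5615 normalised reads in wild type against 3473 and 4451 in overexpression. Both overexpression libraries were below both wild type libraries, 1.33-fold on average (log2 fold change -0.41, SE 0.139, limma adjusted p = 0.548). The value was -0.23 with overexpression replicate 1 left out and -0.59 with replicate 2 of that group left out. Aldh18a1 (chromosome 19), which makes the precursor of proline and ornithine, had 3850 and 4042 normalised reads in wild type against 3139 and 3213 in overexpression. Here the replicates lay close together and the groups apart (log2 fold change -0.31, SE 0.0765, limma adjusted p = 0.351). Pycr1 (chromosome 11), the last enzyme of proline synthesis, stood at 578 ± 42.0 normalised reads in wild type against 485 ± 23.7 in overexpression (SD, n = 2 in each group), also without overlap and at a log2 fold change of -0.25.

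The serine pathway showed overlapping groups. Phgdh (chromosome 3), its first enzyme, stood at 8650 ± 1672 normalised reads in wild type against 7061 ± 1538 in overexpression (SD, n = 2 in each group). The log2 fold changes of Phgdh, Psat1 and Psph, its later steps, were -0.30, -0.14 and -0.18. Leaving out 1 library in turn moved Phgdh between -0.52 and -0.07 and Psat1 between -0.26 and -0.01, with the values nearest 0 reached without overexpression replicate 1. Shmt2 and Mthfd2, mitochondrial enzymes of one-carbon metabolism, stood at -0.15 and -0.23. Shmt2 lies on chromosome 10 and stood at -0.29 with chromosome medians removed. Gpt2 (chromosome 8), mitochondrial alanine transaminase, had a log2 fold change of -0.11.

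Of the 3 amino acid transporters, Slc1a4 (chromosome 11), a carrier of neutral amino acids, had 2435 and 2244 normalised reads in wild type against 2208 and 1905 in overexpression. The groups did not overlap, but the distance was small (log2 fold change -0.19, SE 0.105, limma adjusted p = 0.718). Slc7a1, a cationic amino acid carrier, and Slc1a5, a glutamine carrier, stood at -0.02 and -0.05, with the groups overlapping in each.

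The 12 cytosolic aminoacyl-tRNA synthetases, which load amino acids onto tRNA, had 11 of 12 values below 0 and a median of -0.17. The exception was Mars at 0.06, which lies on chromosome 10 and stood at -0.08 with chromosome medians removed. Iars (chromosome 13), for isoleucine, had 4268 and 4665 normalised reads in wild type against 3580 and 3948 in overexpression. Its groups did not overlap (log2 fold change -0.25, SE 0.0903, limma adjusted p = 0.563), and those of Sars, for serine, did not overlap either, at -0.23. The other 10 overlapped, and among all genes tested 18.3% lay lower without overlap. Aars, for alanine, stood at -0.26, Gars, for glycine, at -0.20, Nars, for asparagine, at -0.18, Wars, for tryptophan, at -0.17, Yars, for tyrosine, at -0.17, Tars, for threonine, at -0.15 and Lars, for leucine, at -0.15. Cars, for cysteine, and Eprs, for glutamate and proline, were nearest to 0 of the values below it, at -0.12 and -0.09. Each of the 12 limma adjusted p-values was above 0.05, the smallest being the 0.563 of Iars.

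The 12 synthetases also moved together between replicates. Relative to the wild type mean, their median was -0.12 and 0.12 in wild type replicates 1 and 2 and -0.27 and -0.07 in overexpression replicates 1 and 2. In all 12, replicate 2 stood above replicate 1 in both groups, against 8 of the 9 synthesis enzymes, 28 of the 45 genes (62.2%), 28.4% of all genes tested and 33.8% of the 8700 genes at least as abundant as the lowest of the 45. The abundance limit and this order were looked at after the values were seen. The distance between the wild type libraries of 0.24 (median size over the 12) was larger than the median of -0.17 between the groups. Without wild type replicate 2 the median of the synthetases was -0.06 and without overexpression replicate 1 it was -0.07. For the synthesis enzymes, the median was -0.06 without wild type replicate 2 and -0.16 without overexpression replicate 1. The marker list of fibroblasts and mesenchyme had the opposite order, with replicate 1 above replicate 2 in both groups for 7 of 8 genes, and its part in the result was not tested.

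**Figure D3:**
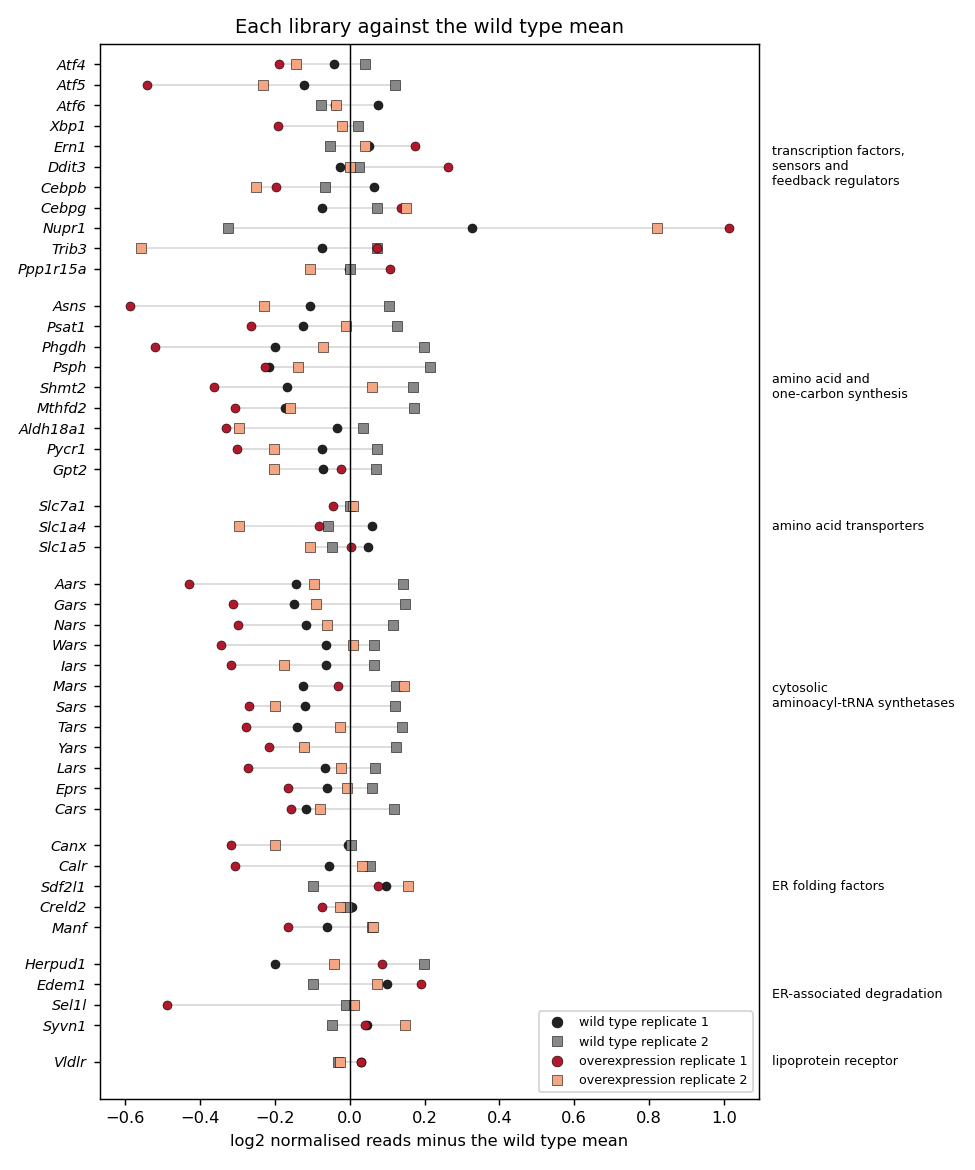
Log2 normalised reads of the 45 genes in each library minus the wild type mean of the gene (horizontal axis), in rows by role, with wild type replicates 1 and 2 as a black circle and a grey square and overexpression replicates 1 and 2 as a dark red circle and a light orange square. In the rows of the synthetases the squares lie to the right of the circles of the same group in all 12, and Nupr1 lies farthest to the right.

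The ER stress response element (ERSE), bound by ATF6 with NF-Y, was searched as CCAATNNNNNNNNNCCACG and ERSE-II as ATTGGNCCACG, on both strands of the same windows. ERSE was present in Calr, Canx, Creld2 and Syvn1 and in 0.119% of all windows, and ERSE-II in Herpud1 and in 0.0365%. The windows are shown because they hold these elements, in capitals. The division from the CARE genes was not complete: the window of Herpud1 also held a CARE core, outside the bases printed, and those of Sdf2l1, Edem1 and Sel1l held neither ERSE nor ERSE-II.
Canx, chr11:50325760-50325859, minus strand: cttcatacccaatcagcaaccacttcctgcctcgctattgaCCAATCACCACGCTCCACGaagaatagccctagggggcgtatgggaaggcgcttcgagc
Calr, chr8:84847035-84847134, minus strand: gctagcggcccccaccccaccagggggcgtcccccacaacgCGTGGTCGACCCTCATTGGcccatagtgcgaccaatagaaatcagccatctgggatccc
Creld2, chr15:88819479-88819578, plus strand: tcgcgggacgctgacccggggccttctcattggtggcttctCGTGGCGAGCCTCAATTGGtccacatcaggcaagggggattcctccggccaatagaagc
Syvn1, chr19:6046476-6046575, plus strand: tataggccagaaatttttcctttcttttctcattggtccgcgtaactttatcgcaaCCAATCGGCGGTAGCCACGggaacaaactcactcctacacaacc
Herpud1, chr8:94386329-94386428, plus strand: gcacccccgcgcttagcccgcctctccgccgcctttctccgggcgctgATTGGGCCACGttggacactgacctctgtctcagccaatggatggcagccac
The 5 genes had 3 values below 0 and a median of -0.05. The 33 without either element had 24 below 0 and a median of -0.17. The shorter cores of 2 further elements, TGACGTG of the XBP1 site and TGACGTCA of the CRE, were present in 1 of the 38 genes each (Eprs and Ppp1r15a), against 2.01% and 1.79% of all windows.

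Of the ER folding factors, Canx (chromosome 11), the lectin chaperone calnexin, had 23293 and 23436 normalised reads in wild type against 18739 and 20330 in overexpression. The groups did not overlap and the wild type libraries nearly coincided, but it did not pass (log2 fold change -0.26, SE 0.0746, limma adjusted p = 0.453). Calr (chromosome 8), the related chaperone calreticulin, had a log2 fold change of -0.14 and overlapping groups. Creld2 and Manf, small secreted or ER-resident stress proteins, both stood at -0.05. Sdf2l1, a cofactor of the chaperone BiP, stood at 0.12, and at -0.05 once the median of chromosome 16, 0.17, was removed. The median of the 5 was -0.05, and it was 0.03 without overexpression replicate 1.

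Among the degradation genes, Sel1l (chromosome 12), which scaffolds the ubiquitin ligase of the ER membrane, had the smallest p. It had 4533 and 4474 normalised reads in wild type against 3213 and 4535 in overexpression, so that overexpression replicate 1 alone was low. Its log2 fold change of -0.24 (SE 0.160, limma adjusted p = 0.749) was 0.01 without that library and -0.49 without overexpression replicate 2. Its ligase partner Syvn1 stood at 0.10, Edem1, which marks misfolded glycoproteins for disposal, at 0.13, and Herpud1, a ligase adaptor, at 0.02. The 4 genes had 3 values above 0 and a median of 0.06. Vldlr (chromosome 19), a lipoprotein receptor reported as an ATF4 target, stood at 2826 ± 86.0 normalised reads in wild type against 2829 ± 76.6 in overexpression (SD, n = 2 in each group), a log2 fold change of 0.001.

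**Figure D4:**
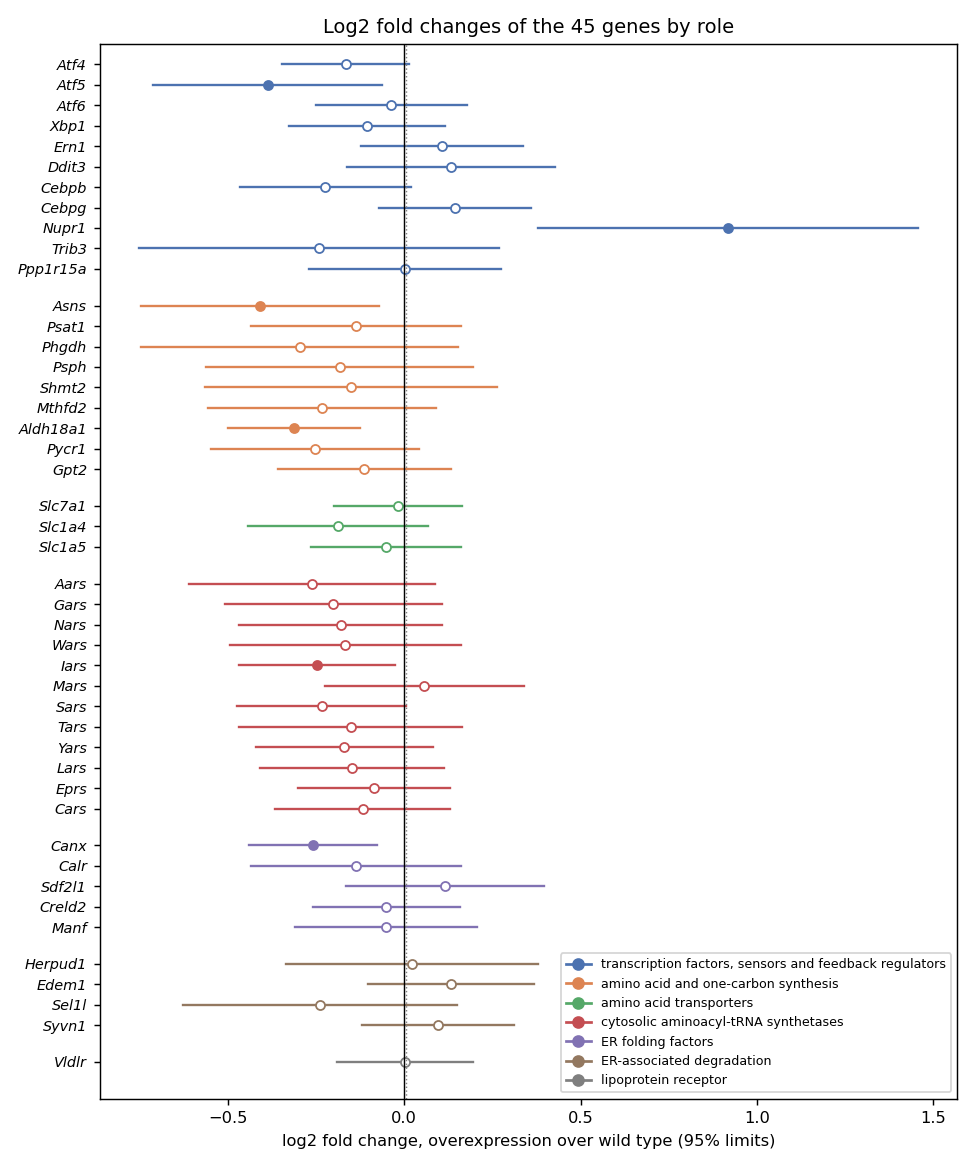
Log2 fold changes of overexpression over wild type (horizontal axis) for the 45 genes, in rows by role, with 95% limits from limma as bars. Filled points have an unadjusted limma p under 0.05 (6 genes), the dotted line is the median of all genes tested, and no gene passed the adjusted threshold.

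Some of the genes overlap a neighbour, and whether their values were affected was not tested. Of the 45 genes, 10 share exon positions with another tested gene, 2 of them on the same strand (Aars with Exosc6 and Manf with Rbm15b). Ddit3 and Mars overlap each other on opposite strands, and neither had a called difference.

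Genes outside the 45 that belong to the same pathways gave 1 call. Slc7a11, the cystine and glutamate exchanger and a target of ATF4, had 570 and 660 normalised reads in wild type against 44.0 and 57.7 in overexpression. It fell by 3.58 on the log2 scale (SE 0.201, limma adjusted p = 0.00383). The adjusted p was 0.128 without wild type replicate 1 and 0.102 without wild type replicate 2, and the log2 fold changes were -3.69 and -3.47. Among the 18 tested of 22 other ATF4 targets, it was the 1 called gene, 12 lay below 0 and the median was -0.11. Chac1, which degrades glutathione and had the next smallest p, had 578 and 589 normalised reads in wild type against 478 and 450 in overexpression (log2 fold change -0.33, limma adjusted p = 0.549). The members of the list were chosen with earlier results known, so that Slc7a11 is no independent evidence of a direction.

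The remaining pathway lists had 0 called genes each. The list of eIF2 kinases and subunits of eIF2 and its exchange factor eIF2B, which also holds Ppp1r15b, Gcn1l1 and Impact, had 10 of 15 tested below 0 (median -0.02). Eif2b5, on chromosome 16, stood at 0.22, and at 0.05 with chromosome medians removed, and Eif2b4 stood at -0.24. Other cytosolic synthetases and their scaffolds had 7 of 11 below 0 (median -0.11), with Rars, for arginine, at -0.33 and Hars, for histidine, at -0.17. The 17 mitochondrial synthetases had 6 below 0 (median 0.05), with Wars2 at 0.65 and Fars2 at 0.16. Wars2 had 697 and 255 normalised reads in wild type against 643 and 677 in overexpression, so that wild type replicate 2 alone was low. Other folding factors of the ER had 7 of 16 below 0 (median 0.01). The chaperone Hsp90b1, on chromosome 10, stood at 0.11 and the cofactor Dnajb11, on chromosome 16, at 0.17. With chromosome medians removed Hsp90b1 stood at -0.03 and Dnajb11 at -0.001. Other degradation genes had 8 of 13 tested below 0 (median -0.03), with Erlec1 at -0.19 and Derl1 at -0.13. The list of other sensors, proteases and further genes, which shares Eif2ak3 with that of the eIF2 kinases, had 6 of 9 tested below 0 (median -0.06). In it Txnip stood at -0.38 (SE 0.334, groups overlapping) and Atf6b at -0.18. Other serine, glycine and one-carbon enzymes had 3 of 10 tested below 0 (median 0.04). Aldh1l1, a folate enzyme, had 57.8 and 65.3 normalised reads in wild type against 14.0 and 12.4 in overexpression (log2 fold change -2.14, SE 0.332, limma adjusted p = 0.118).

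**Figure D5:**
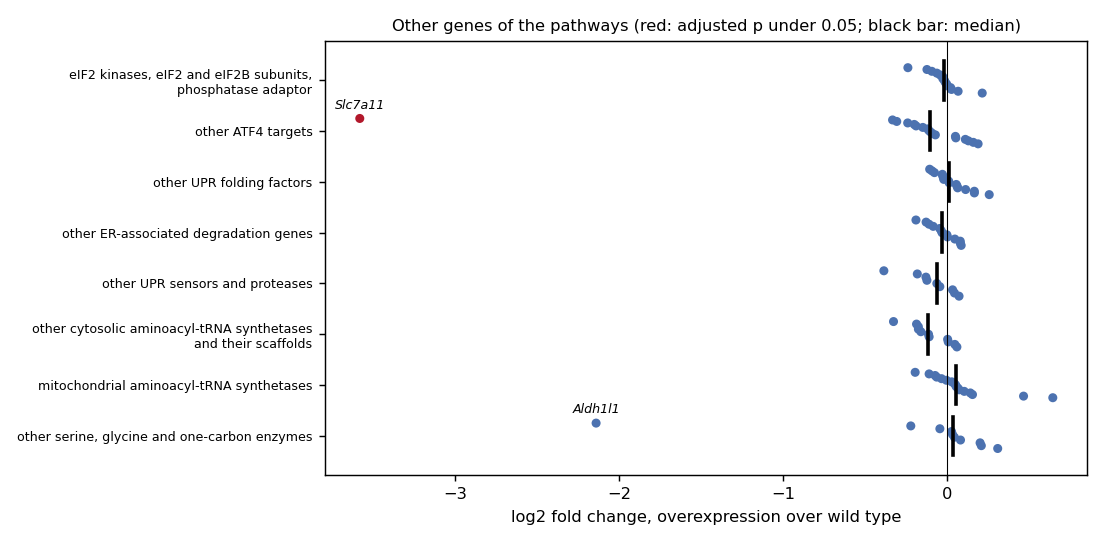
Log2 fold changes of overexpression over wild type (horizontal axis) for the tested genes of the 8 lists of other pathway genes, 1 point per gene, with a black bar at the median of each list and called genes in red. Slc7a11 at -3.58 is the 1 red point, and Aldh1l1 at -2.14 is the next farthest from 0.

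Per kilobase of exon, wild type levels ran from 7882 normalised reads for Calr to 147 for Pycr1. Exon length was the union of the exons of all annotated transcripts of a gene. It can exceed the length of the main mRNA, so the order depends in part on the annotation. After Calr came Canx (4978), Phgdh (3479), Atf4 (3407), Psat1 (3174) and Gars (3022). At the other end were Nupr1 (173), Ern1 (213), Psph (255) and Vldlr (281). Nupr1 stood at 321 in overexpression. The 5 highest thus held both lectin chaperones, a pair of serine enzymes and Atf4, while Pycr1 and Psph, also enzymes of amino acid synthesis, were among the 5 lowest.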

How the data were processed

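RNA was sequenced from 4 HT-22 libraries, 2 per group, with Trizol extraction, a TruSeq RNA kit and the BGISEQ-500 platform, per the labels' protocols. HISAT, Cufflinks and the build mm9 are listed, without versions, per the submitters' processing notes. The counting step and its use of strand are not given in the sources used here. Each gene has 1 deposited value per library, on a log2 scale: normalised reads with 1 added. The scale was worked out from the values: with the log2 undone, 100% of values were whole multiples of 1 step per library (tolerance 0.001 read), worth 1.26, 1.05, 1.00 and 0.730 normalised reads for the wild type pair and the overexpression pair in turn.

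limma 3.58.1 (R 4.3.3) with a mean-variance trend took group as its single term and was fitted to these values over the 15540 genes with a mean of at least 10 normalised reads. Two-sided p-values were Benjamini-Hochberg adjusted over all genes tested and called under 0.05. The log2(value + 1) scale understates fold changes of low genes. The smallest exact permutation p of 2 libraries against 2 is 0.333, so calls rest on the pooled variance (4.10 prior and 6.10 total degrees of freedom). Replicates differed beyond counting noise (chi-square per gene 18.4 in wild type and 25.4 in overexpression), and each was counted as a sample. The fit was tested on simulated data with planted changes of 2-fold or more, so that test does not cover the smaller differences seen in the members.

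Chromosomes, exon lengths and overlaps came from GENCODE M21 (GRCm38) by identifier and start site windows from RefSeq (GRCm38.p6), so no coordinate is from the authors' build. Tables and figures used Python 3.11.15, numpy 2.4.6, scipy 1.17.1, pandas 2.3.3 and matplotlib 3.10.9. Single libraries are given for the regulators Atf4, Atf5, Atf6, Xbp1, Ern1, Ddit3 and Trib3, for members with an unadjusted limma p under 0.05, with an absolute log2 fold change of at least 0.5 or with the smallest p of their role, and for called genes of other lists. Other members are given by means, ranges or counts, and from each other pathway list the 2 smallest p are named, except for 1 gene that is not reported here. Values printed per library for Nup62, Tmem189, Wars2, Aldh1l1 and Chac1 and ranges for Dlg4, Camk2a and Eno2 were added after they were seen. The 45 genes and all lists were chosen with earlier results of these data known. The alternatives were other pseudocounts, filters, scalings, variance models, thresholds, the replicate number as a block, chromosome medians removed and each library left out.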

Additional observations from a re-analysis of the deposited data

How the results depend on the processing

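No member was called by limma in any setting run, with the smallest adjusted p between 0.168 and 0.659 except with the replicate number as a block, where Nupr1 had 0.0846. Members with an unadjusted limma p under 0.05 numbered 6 as reported, 14 with the replicate block, 2 without a variance trend, and 2 to 12 with a library left out. Pooled over 11650 genes, the deviations of same-numbered libraries had a correlation of 0.00589. Genes with the same replicate order in both groups raise this value, whichever replicate is higher, and genes whose order differs between the groups lower it. Of all genes tested, 28.4% had replicate 2 above replicate 1 in both groups and 27.3% had the reverse order in both. Whether same-numbered libraries share more than a number was not tested.

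The number of called genes was 30 as reported, 16 without a filter on low values, 18 with quantile normalization, 9 without a trend, 72 with robust variances, 60 with the replicate block, 11 at an adjusted threshold of 0.01 and 69 at 0.1. With a library left out it ran from 2 (without wild type replicate 1) to 75 (without overexpression replicate 2), where the lone library of a group is assumed to vary like the other group. Slc7a11 lost its call without a trend (limma adjusted p = 0.0853).

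The median of the 45 genes, -0.15, lay between -0.208 (without wild type replicate 1) and -0.0426 (without overexpression replicate 1), and 31 to 35 genes were below 0. With chromosome medians removed 38 were below 0. Of 720 member values under 16 alternatives 25 turned sign, 19 of them with a library left out. All were in members whose reported size was at most 0.24, and 29 members kept their sign throughout. The turns without leaving out a library were Vldlr at -0.0196 with quantile normalization, Ppp1r15a at -0.00805 with limma voom, and Ppp1r15a (-0.000356), Ddit3 (-0.00848), Mars (-0.0828) and Sdf2l1 (-0.0523) with chromosome medians removed. With each library left out in turn, Atf6 ran from -0.113 to 0.0387, Herpud1 from -0.177 to 0.221, Mars from -0.0667 to 0.182, Manf from -0.165 to 0.0618, Psph from -0.397 to 0.0318, Shmt2 from -0.363 to 0.0598, Vldlr from -0.0297 to 0.0324, Calr from -0.306 to 0.0338, Ppp1r15a from -0.105 to 0.107, Sel1l from -0.487 to 0.0102, Slc7a1 from -0.0446 to 0.00950, Wars from -0.344 to 0.00914, Slc1a5 from -0.107 to 0.00311 and Trib3 from -0.557 to 0.0734. With 2 libraries a group, log2 fold changes over all genes tested had a median SE of 0.133, and only 1 cell line was measured.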
